A study of Homo sapiens with 6 samples.

Results

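The POU genes encode transcription factors that bind DNA through a bipartite POU domain, made of a POU-specific domain and a POU homeodomain joined by a linker. The family was named for the pituitary factor Pit-1, the octamer-binding factors Oct-1 and Oct-2, and the nematode factor Unc-86, and many of its members recognise the octamer motif or a close variant. POU5F1B is a retrogene copy of POU5F1, the gene of the pluripotency factor OCT4. The paper found the POU5F1B protein mainly in the cytoplasm and enriched in membranes. Its chromatin immunoprecipitation did not show significant binding of POU5F1B to the genome. The RNA level of POU5F1B in cells that carried a POU5F1B vector was set here beside the levels of 9 other POU genes. The 9 were POU5F1, POU2F1, POU2F2, POU2F3, POU3F1, POU3F2, POU4F1, POU5F2 and POU6F1. These 10 genes were taken by symbol from the 63677 gene identifiers in the count tables. At least 1 read was counted for 9 of the 10, and 6 of the 10 passed the filter on low counts that left 14286 genes for testing.

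The cells were SW480, an established line from a human colorectal adenocarcinoma. GFP cells and POU5F1B cells carried a doxycycline-inducible lentiviral vector for green fluorescent protein or for HA-tagged POU5F1B, were selected as transduced populations, and were harvested after 72 h in doxycycline at 1 µg/mL, so that the control cells had received virus and drug as well. Each group had 3 libraries of polyadenylated RNA. The vector held only the coding part of POU5F1B, amplified from the genomic DNA of another colorectal line, DLD1, and reads from the vector and from the cells' own POU5F1B gene were counted together. The labels did not say whether replicates were separate cultures, so p-values measure only the spread between these libraries, which may be technical.

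Depth ranged from 10767947 to 12787637 counts per library, and 3 counts, used as the floor of detection, corresponded to 0.228 to 0.278 CPM, counts per 1000000 counts of the TMM-scaled library size. The floor covers counting error only. Both replicate 3 libraries stood apart from replicates 1 and 2 of their group. The chi-square per degree of freedom between GFP replicates 1 and 2 was 4.21, against 78.7 and 89.5 between them and GFP replicate 3, and in POU5F1B cells it was 5.38 against 17.5 and 20.9. Results are therefore given with all 6 libraries and, where stated, with replicates 1 and 2 only. Of 10 colon epithelial markers, 8 were tested and 0 passed the threshold. KRT8 and KRT18, the keratins of simple epithelia, had at least 35126 counts in each library, whereas CDX1, an intestinal homeobox gene, had 0 to 2. In replicates 1 and 2, 3 markers passed, all higher in POU5F1B cells. These were CDH1 (E-cadherin), EPCAM, an epithelial adhesion molecule, and VIL1, the brush border protein villin, with log2 fold changes of 2.33, 1.87 and 1.16 and limma voom adjusted p-values of 1.81e-08, 1.24e-08 and 0.00070. With all libraries these were 1.71, 0.92 and 0.51 with adjusted p-values of 0.207, 0.610 and 0.869. Other markers, named after their values were seen, were lower in POU5F1B replicates 1 and 2. CDX2, an intestinal homeobox gene, had -0.58 and KRT20 -0.46, with limma voom adjusted p-values of 0.0333 and 0.488. GPA33 did not pass the filter, and with no filter it had -2.72 with a limma voom adjusted p of 0.0150. It was counted 9, 9 and 0 times in GFP cells and 3, 0 and 5 times in POU5F1B cells.

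Of the 10 genes, POU5F1B was the most abundant by far in cells that carried its vector, at 158 ± 117 CPM per kb of exon (SD, n = 3). POU5F1 came next with 3.86 ± 2.92, and POU2F1 followed with 1.39 ± 0.08. Per kb of coding length, the part that the vector held, POU5F1B stood at 729 ± 537 CPM. In GFP cells POU2F1 led the family with 1.73 ± 0.61 CPM per kb of exon. With all 6 libraries, 0 of the 6 tested POU genes passed the threshold in limma voom (Benjamini-Hochberg adjusted p under 0.05 and a change over 2-fold), as did 0 of all 14286 genes, 0%. With replicates 1 and 2 only, POU5F1B and POU5F1 passed, both higher in POU5F1B cells. In bulk libraries, fewer cells with a transcript and less transcript per cell cannot be told apart.

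**Figure D1:**
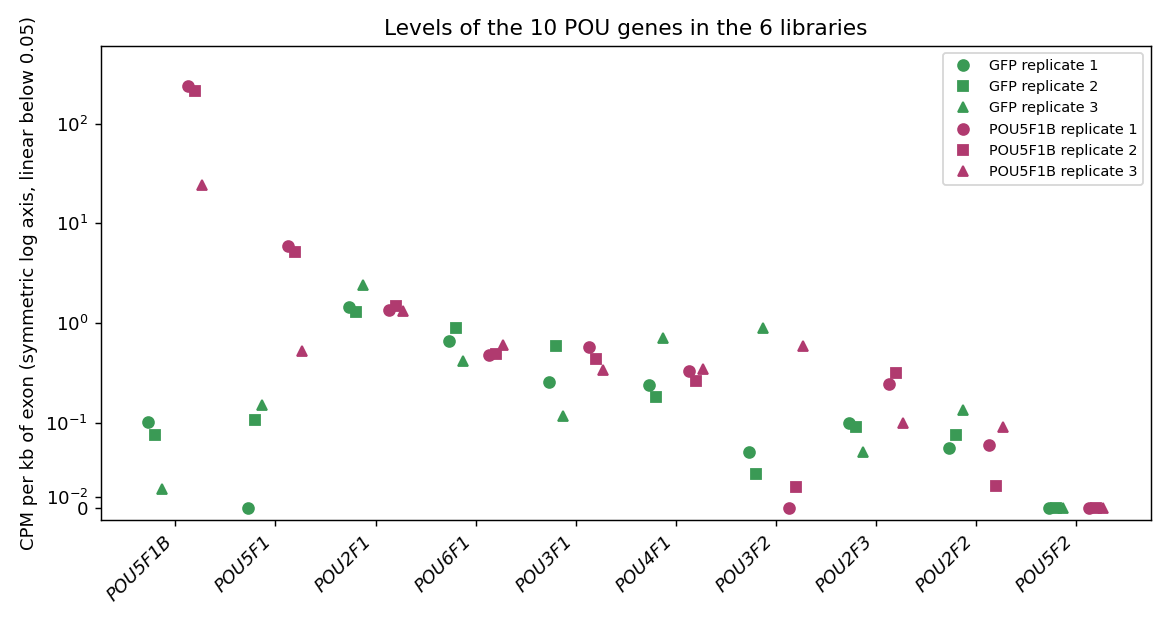
Level of each of the 10 POU genes in each library, as CPM per kb of exon on a symmetric log axis that is linear below 0.05; green points are GFP libraries, magenta points POU5F1B libraries, and the marker shape gives the replicate. POU5F1B in POU5F1B libraries lies above every other point, and POU2F1 leads the GFP libraries with 1.31 to 2.43.

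POU5F1B (ENSG00000212993, chr8:128334428-128432311 on GRCh37, plus strand) had 6, 5 and 1 counts in GFP replicates 1, 2 and 3, and 15027, 11393 and 1458 in POU5F1B replicates 1, 2 and 3. The groups did not overlap, and POU5F1B replicate 3 lay well below the other POU5F1B libraries. As CPM, the means were 0.324 ± 0.215 in GFP cells and 785 ± 578 in POU5F1B cells (SD, n = 3). The log2 fold change was 10.73 ± 2.78 (SE) and the limma voom adjusted p was 0.252. From replicates 1 and 2 alone it was 11.18 ± 0.44 with a limma voom adjusted p of 8.31e-09.

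POU5F1 (ENSG00000204531, chr6:31132114-31148508, minus strand), which encodes OCT4, the factor that maintains pluripotency in the early embryo, was counted 0, 4 and 5 times in GFP cells and 217, 159 and 18 times in POU5F1B cells. These groups did not overlap either, and the order of the POU5F1B libraries was the one seen for POU5F1B. Like POU5F1B, POU5F1 passed the filter only through the POU5F1B libraries. The p-values of both are thus for genes selected by the group in which they were high. The log2 fold change of POU5F1 was 5.25 ± 1.62 with a limma voom adjusted p of 0.308. With replicates 1 and 2 only it was 7.04 ± 0.70 with a limma voom adjusted p of 1.65e-05.

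The sequences of both genes bear on this value. On GRCh37, the single coding exon of POU5F1B, 1077 bases long, aligned to the 1080 coding bases of POU5F1, which lie in 5 exons, with 97.9% identity, 23 differing bases and 3 POU5F1 bases that have no counterpart after base 770 of POU5F1B. The translated products of 359 and 360 residues differed at 14 aligned positions. The longest identical run, of 167 bases, follows these 3 bases. Of all 50-base windows of the POU5F1B coding sequence, 35.4% occurred unchanged in the POU5F1 transcript or gene, of 75-base windows 21.6% and of 100-base windows 11.0%, so that part of the reads of such lengths cannot be assigned to one of the genes by sequence alone. In POU5F1B replicates 1, 2 and 3 the POU5F1B level per kb of exon was 40.0, 41.4 and 46.8 times that of POU5F1, so that both genes were lower in replicate 3 by a like factor. Only uniquely mapped reads were counted, so reads that matched both genes equally should be absent from both counts. How much of the POU5F1 value came from reads of POU5F1B was not tested. With the counts of both genes summed, the log2 fold change was 9.79 ± 2.39, with a limma voom adjusted p of 0.236.

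**Figure D2:**
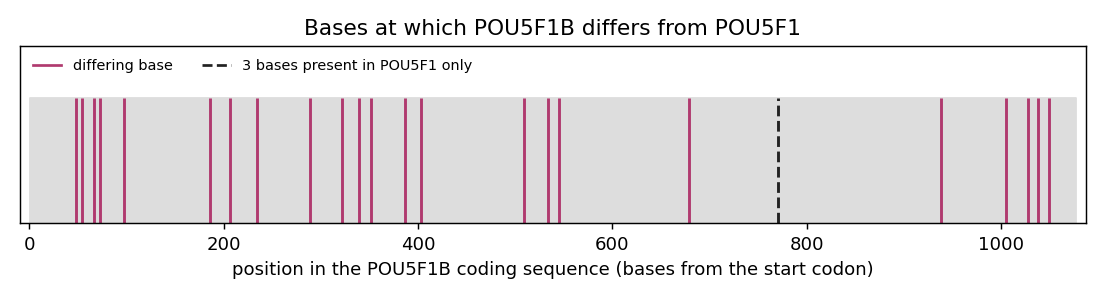
Positions of the 23 bases at which the POU5F1B coding sequence differs from the aligned POU5F1 coding sequence; the horizontal axis counts bases from the start codon and each solid line is a difference, while the dashed line marks the place of 3 bases present in POU5F1 only. Most differences lie in the first part of the sequence, and the longest identical run, of 167 bases, begins at the dashed line.

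Of the 6 annotated POU5F1 pseudogenes, POU5F1P3 and POU5F1P4 are the most alike to POU5F1B, with 96.8% and 96.0% identity along the aligned bases. POU5F1P3 had 0 counts in each GFP library and 2, 2 and 0 in the POU5F1B libraries. POU5F1P4 and POU5F1P6 had 1 count each, in POU5F1B replicate 2, and the other 3 pseudogenes had none. These counts are at or under the floor, so no fold change is given. Adding the pseudogenes to the paralog sum left the log2 fold change at 9.79.

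The class II genes include the broadly expressed octamer factor OCT1, the product of POU2F1, which activates small nuclear RNA and histone genes. POU2F1 (ENSG00000143190, chr1:167190113-167396582, plus strand) was counted 275, 276 and 449 times in GFP cells and 277, 256 and 255 times in POU5F1B cells. GFP replicate 3 was the highest, and the other 5 libraries were close to each other. Its log2 fold change was -0.26 ± 0.26 with a 95% interval of -0.87 to 0.36, and the limma voom adjusted p was 0.722. From replicates 1 and 2 alone the value was 0.03 ± 0.14, with an interval of -0.28 to 0.34 and a limma voom adjusted p of 0.894. The sign thus turned when replicate 3 was left out, and both intervals lie within a 2-fold change in either direction. POU2F1 took 66.1 to 76.2% of the counts of the 8 POU genes other than POU5F1B and POU5F1, and 38.9 to 51.2% of their summed level per kb of exon.

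POU2F2 and POU2F3 encode class II factors of particular lineages. POU2F2 (ENSG00000028277, chr19:42590262-42700737, minus strand), the gene of OCT2 of B cells, was counted 6, 9 and 14 times in GFP cells and 7, 2 and 10 times in POU5F1B cells. The groups overlapped, and the gene did not pass the filter. Fitted with no filter, its log2 fold change was -0.65 ± 0.61, with a limma voom adjusted p of 0.761.

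POU2F3 (ENSG00000137709, chr11:120107349-120190654, plus strand), the lineage factor of chemosensory tuft cells, was counted 8, 8 and 4 times in GFP cells and 21, 23 and 8 times in POU5F1B cells. As CPM the lowest POU5F1B library, replicate 3 with 0.664, lay just under the highest GFP library with 0.673, so the groups overlapped by a narrow margin. The gene did not pass the filter. Fitted with no filter, its log2 fold change was 1.28 ± 0.58, with a limma voom adjusted p of 0.604. With replicates 1 and 2 only and no filter, a setting chosen after the data had been seen, it was 1.48 ± 0.49 with a limma voom adjusted p of 0.0299, past the threshold. Its mean in POU5F1B cells was 1.48 ± 0.75 CPM, so that this difference rests on few counts.

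Class III and class IV genes act mainly in the nervous system. POU3F1 (ENSG00000185668, chr1:38509501-38512465, minus strand), the gene of OCT6 of Schwann cells and keratinocytes, was counted 9, 23 and 4 times in GFP cells and 22, 14 and 12 times in POU5F1B cells. The GFP libraries spread over a wider range than the POU5F1B libraries and enclosed it. The log2 fold change was 0.69 ± 0.57 with a limma voom adjusted p of 0.665, and 0.34 ± 0.45 with replicates 1 and 2 only, where the limma voom adjusted p was 0.605.

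POU4F1 (ENSG00000152192, chr13:79172497-79177687, minus strand), the gene of BRN3A of sensory neurons, was counted 13, 11 and 37 times in GFP cells and 19, 13 and 19 times in POU5F1B cells. GFP replicate 3 was again the highest, and the others lay within 11 to 19 counts. Its log2 fold change was near 0, at 0.0027 ± 0.53, with an interval of -1.25 to 1.25 and a limma voom adjusted p of 0.999. Without the replicate 3 libraries it was 0.47 ± 0.41 with a limma voom adjusted p of 0.423. The sign of this value was negative with edgeR and with DESeq2, at -0.25 in each.

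POU3F2 (ENSG00000184486, chr6:99282450-99287334, plus strand), the gene of the neural factor BRN2, differed by replicate number more than by vector. It was counted 3, 2 and 50 times in GFP cells and 0, 1 and 35 times in POU5F1B cells. Both replicate 3 libraries, with 4.33 and 2.91 CPM, were thus above the floor and the other 4 at or under it. POU3F2 did not pass the filter, and with no filter its log2 fold change was -1.27 ± 1.67 with a limma voom adjusted p of 0.763. No fold change is given for replicates 1 and 2 only, where each library is at or under the floor.

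SOX2, the partner of OCT4 on many enhancers, and ESRRB, a nuclear receptor of the pluripotency network, were chosen after their values were seen because they had the same pattern. SOX2 was counted 9, 2 and 72 times in GFP cells and 2, 1 and 36 times in POU5F1B cells. ESRRB was counted 9, 12 and 155 times in GFP cells and 6, 6 and 77 times in POU5F1B cells. In both genes each replicate 3 library exceeded all replicate 1 and 2 libraries. LIN28A, an RNA-binding protein of embryonic cells that was likewise chosen after its values were seen, was high in POU5F1B replicate 3 alone. It was counted 7, 6 and 2 times in GFP cells and 8, 6 and 268 times in POU5F1B cells. What the replicate 3 libraries share was not tested.

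**Figure D3:**
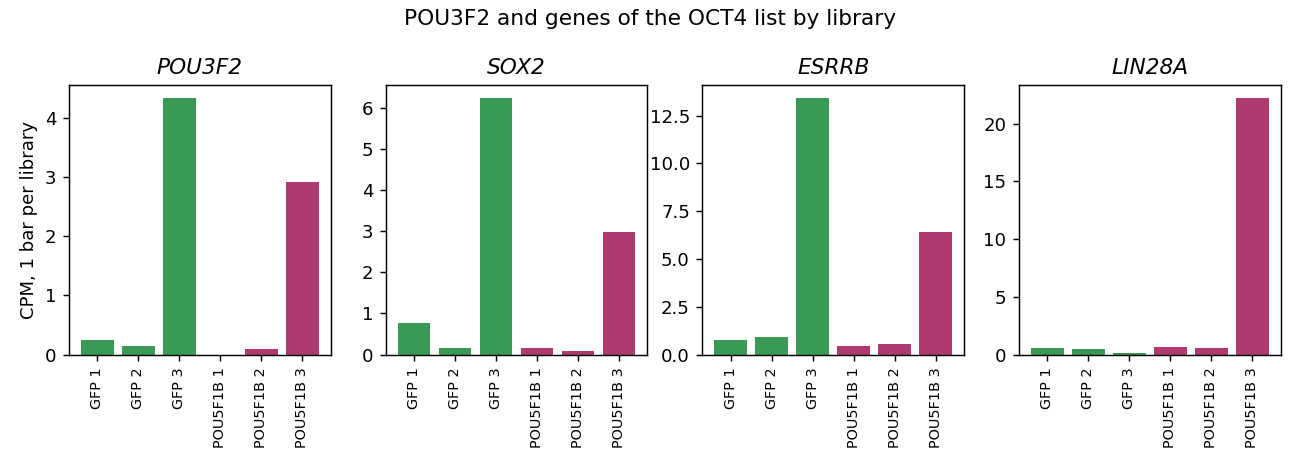
CPM of POU3F2, SOX2, ESRRB and LIN28A, 1 bar per library, green for GFP and magenta for POU5F1B libraries, each panel on its own linear axis from 0. POU3F2, SOX2 and ESRRB are high in both replicate 3 libraries, and LIN28A in POU5F1B replicate 3 alone.

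POU6F1 (ENSG00000184271, chr12:51580719-51611846, minus strand), the gene of BRN5, a neural factor also found in other tissues, came after POU2F1 in GFP cells by level per kb of exon. It was counted 51, 75 and 31 times in GFP cells and 39, 34 and 47 times in POU5F1B cells. The GFP range enclosed the POU5F1B range. The log2 fold change was -0.28 ± 0.33 with a limma voom adjusted p of 0.776. In replicates 1 and 2 it was -0.69 ± 0.27, with a 95% interval of -1.28 to -0.09 and a limma voom adjusted p of 0.0781. POU5F2 (ENSG00000248483, chr5:93068926-93077306, minus strand), a class V gene expressed in testis, had 0 counts in all 6 libraries, which allows at most 3 counts, or 0.228 to 0.278 CPM, in each.

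**Figure D4:**
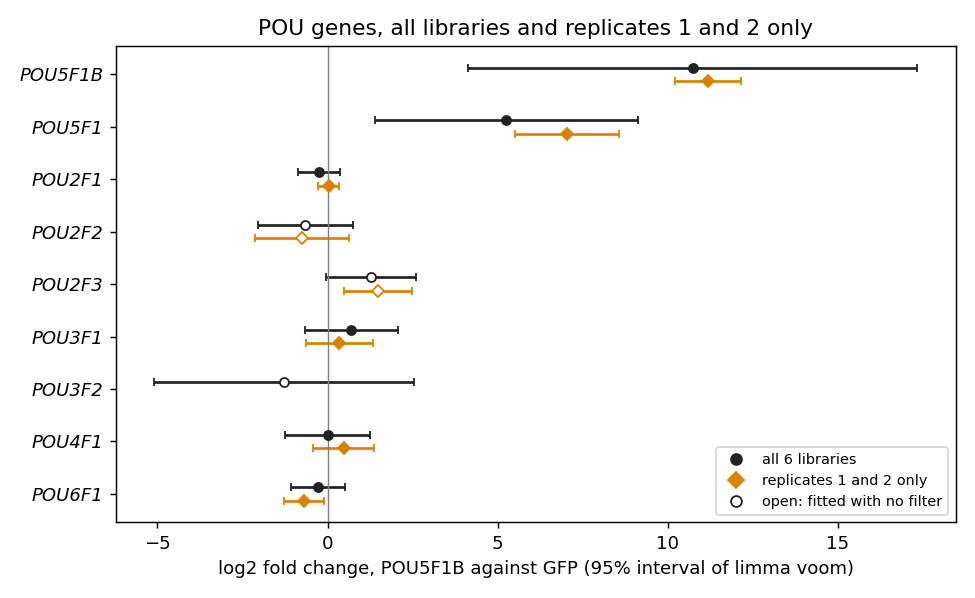
Log2 fold change of POU5F1B against GFP cells for 9 POU genes, with the 95% interval of limma voom; black circles use all 6 libraries, orange diamonds replicates 1 and 2 only, and open symbols are fits with no filter on low counts. With all libraries the intervals of POU5F1B and POU5F1 lie above 0 while the adjusted p-values, 0.252 and 0.308, miss the threshold; POU3F2 has no diamond because these libraries were at or under the floor, and POU5F2 had no counts.

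The counts of POU genes with a difference are set here beside those of all genes. At an unadjusted p under 0.05 there were 2 of the 6, POU5F1B and POU5F1, beside 1698 of 14286 genes, 11.9%. The groups did not overlap, with the POU5F1B libraries higher, for the same 2, where 10.2% of all genes did so, and for 0 with the POU5F1B libraries lower, where 9.21% did so. With replicates 1 and 2 only, 2 of the 6 passed the threshold beside 1194 genes, 8.36% of all, and with no filter 3 of 9 passed beside 5.95% of 24888 genes. DESeq2 called 2 of the 6 with all libraries beside 1.62% of all genes, limma voom with sample quality weights 2 beside 7.54%, and edgeR 0. The called genes were POU5F1B and POU5F1 in each case, with POU2F3 added only when no filter was combined with replicates 1 and 2. With no filter and all libraries, 0 of 9 passed. Since POU5F1B and POU5F1 passed the filter only through the POU5F1B libraries, these counts are no estimate for the family. Among the 6, 4 log2 fold changes were above 0 and 2 below, with a median of 0.35, beside a median of -0.02 over all tested genes. That median includes POU5F1B and POU5F1 and is likewise no estimate for the family. The remaining tested members had -0.26 (POU2F1), 0.69 (POU3F1), 0.0027 (POU4F1) and -0.28 (POU6F1).

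To set the vector beside the endogenous genes, levels were divided by length. The exons of POU5F1B span 4964 bases and its coding sequence 1077, and the vector held the coding sequence only, so that both lengths are used. Per kb of exon, POU5F1B was 26.4, 26.0 and 6.22 times the sum of the other 9 genes in POU5F1B replicates 1, 2 and 3, a mean of 19.6 ± 11.6 (SD, n = 3). In GFP cells the same ratio was 0.021 ± 0.016. Replicates 1 and 2 were alike and replicate 3 was lower, although POU5F1B was still the most abundant of the 10 there. Per kb of coding length the mean ratio was 25.8 ± 16.6. It was 90.2 ± 53.3 when POU5F1B was divided by coding length and the others by exon length, and 51.7 ± 38.8 when POU5F1 was left out of the sum.

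Gene by gene, the ratio of POU5F1B to POU2F1, both per kb of exon, was 175, 144 and 18.5 in POU5F1B replicates 1, 2 and 3. The ratio to POU6F1 was 497, 432 and 40.0, and to POU4F1 723, 801 and 70.2. To POU3F1 it was 408, 486 and 72.6, and to POU2F3 966, 669 and 246. In all of these, replicate 3 had the lowest ratio, in contrast to POU5F1, where it had the highest. Against POU3F2 only replicate 3 allowed a ratio, 41.0, and against POU2F2 replicates 1 and 3 gave 3923 and 266.

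**Figure D5:**
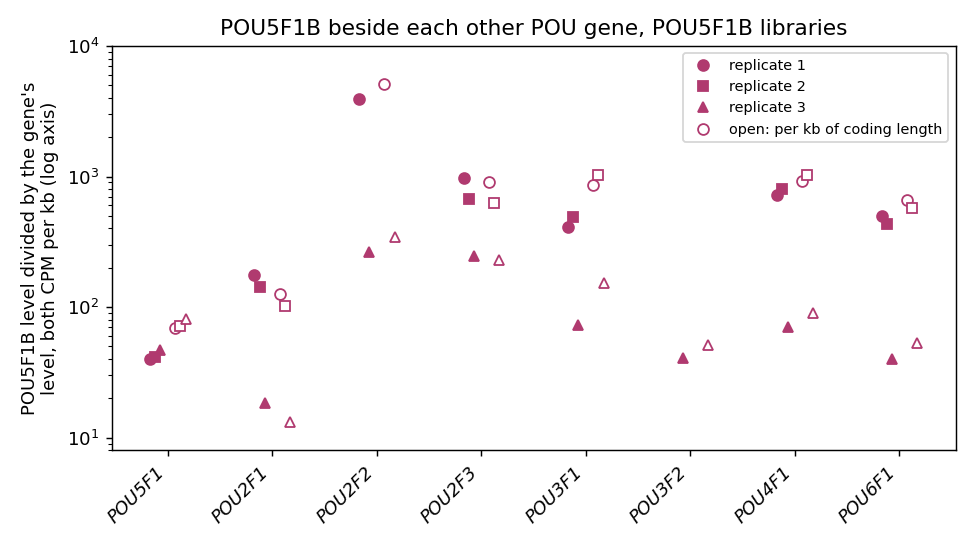
Ratio of the POU5F1B level to that of each other POU gene in the 3 POU5F1B libraries, on a log axis; filled symbols are per kb of exon, open symbols per kb of coding length, and shapes give the replicate. Genes with 3 or fewer counts in a library have no point there, and replicate 3 is the lowest for each gene with more than 1 point but POU5F1.

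Among all 14021 tested genes with a known length, POU5F1B ranked 119th and 134th by level per kb of exon in POU5F1B replicates 1 and 2, and 1832nd in replicate 3. These are the 99.2, 99.0 and 86.9 percentiles. The vector held the coding part only, so division by the longer exon length gives a lower value for it. Per kb of coding length POU5F1B was at 1095, 979 and 112 CPM in these libraries, and ranks by that length were not computed. POU2F1 lay between the 23.6 and 32.6 percentiles in the 6 libraries, and POU3F1, POU4F1 and POU6F1 lay below it in each library. POU5F1 lay at the 56.5, 52.9 and 11.2 percentiles in POU5F1B replicates 1, 2 and 3, above POU2F1 in replicates 1 and 2, and at most at the 3.17 percentile in GFP libraries. In GFP cells the order per kb of exon was POU2F1, POU6F1 with 0.660, POU4F1 with 0.377, POU3F2 with 0.323, POU3F1 with 0.321, POU2F2 with 0.0883, POU5F1 with 0.0857, POU2F3 with 0.0810, POU5F1B with 0.0652 and POU5F2 with 0. Only POU2F1 was separate from its next neighbour, apart from POU5F2 with no counts, and all other neighbours overlapped. In POU5F1B cells POU5F1B and POU2F1 were separate from the gene that came next, as was POU2F2 from POU5F2, whereas POU5F1 overlapped POU2F1, and the remaining neighbours overlapped as well.

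The exons of 5 members overlap another gene, and the strand setting of the counting was not stated. POU5F1 shares 8.64% of its exon bases with TCF19 on the opposite strand, which had 604 to 1166 counts. POU5F1B shares 17.1% with the lncRNA PCAT1 on the same strand, which had 0 to 3. The partners of POU2F1 and POU4F1 had at most 1 count, and POU5F2 shares 1.54% with FAM172A, which had 129 to 325. These partners were chosen by position and not by their values.

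The octamer ATGCAAAT is bound by OCT1, OCT2 and OCT4. It was searched on both strands in RefSeq promoters of GRCh38.p14, from 250 bases before to 50 after each start. The table held 10 promoters of 7 members, and no entry for POU5F1B, POU5F1 and POU2F3. The motif was found in 2 of the 10, beside 623 of all 35116 promoters, 1.77%. Both are shown with the bases around them because they belong to POU2F1, the most abundant member in GFP cells, and to POU5F2, the one with no counts, with the octamer or its reverse complement ATTTGCAT in capitals, from chr1:167328865-167328924 on the plus strand and chr5:93741786-93741845 on the minus strand.
POU2F1: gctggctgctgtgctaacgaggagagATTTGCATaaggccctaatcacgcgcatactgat
POU5F2: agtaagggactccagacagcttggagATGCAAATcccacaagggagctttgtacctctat
The matches end 171 and 211 bases before the start site. A match is a description of the letters and not of binding.

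Further POU genes were at the floor or near it. POU1F1, POU3F4 and POU4F2 had 0 counts in all 6 libraries, POU3F3 had 4 to 10 counts and POU4F3 had 0 to 2. None of these passed the filter.

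Of 9 genes whose products work with POU factors, 8 were tested and 0 passed the threshold with all libraries, 2 being higher and 6 lower in POU5F1B cells, with a median log2 fold change of -0.12. HCFC1, the host cell factor that OCT1 joins on viral promoters, had 1766 to 3082 counts, a log2 fold change of -0.08 and a limma voom adjusted p of 0.895. In replicates 1 and 2 HCFC1 had -0.35 with a limma voom adjusted p of 0.0206, a change under 2-fold. SNAPC4, the subunit of the snRNA activating complex that contacts OCT1, had 368 to 531 counts, 0.13 and an adjusted p of 0.763. POU2AF1, the OCT1 and OCT2 coactivator of B cells, was chosen after its values were seen. It was counted 24, 33 and 64 times in GFP cells and 9, 7 and 54 times in POU5F1B cells. Its log2 fold change was -1.20 ± 0.76 with a limma voom adjusted p of 0.579, and with replicates 1 and 2 only it fell by 1.69 on the log2 scale, with a limma voom adjusted p of 0.00845.

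Of 15 partners and targets of OCT4, 5 had no counts, 4 were tested and 0 passed the threshold with all libraries or with replicates 1 and 2 only. KLF4, a zinc finger factor of the gut epithelium and of pluripotent cells, had a log2 fold change of 0.25 with a limma voom adjusted p of 0.795. TRIM71, a ubiquitin ligase of embryonic cells, had 0.83 with an adjusted p of 0.589. Both signs turned in replicates 1 and 2, to -0.20 for KLF4 and -0.12 for TRIM71 with limma voom adjusted p-values of 0.319 and 0.682. The signs of the other tested genes held. SALL4, named after its values were seen, had 0.79 with all libraries and 0.31 in replicates 1 and 2. Its limma voom adjusted p-values were 0.424 and 0.366. ESRRB had -0.75 and -0.68. The median of the 4 tested genes went from 0.52 to -0.16. NANOG, the homeobox factor of pluripotent cells, had 0 or 1 count in each library and was named after its values were seen. The summed level of the list was 35.8 to 39.4 CPM in GFP libraries and 34.9 to 85.4 CPM in POU5F1B libraries. The upper value was that of POU5F1B replicate 3, without which the highest was 35.4 CPM.

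Markers of the cell types in which POU2F3 and POU2F2 act were also counted. Of 16 tuft cell markers, 5 had no counts and 3 were tested, with 0 past the threshold. DCLK1, a kinase of tuft cells that is also expressed in other cells, had a log2 fold change of -1.45 ± 0.25 with a limma voom adjusted p of 0.185, and with replicates 1 and 2 only it fell by 1.88 on the log2 scale past the threshold, which is the direction opposite to that of POU2F3. PLCB2, a phospholipase of taste and tuft cells, had 0.49 with an adjusted p of 0.649. PTGS1, the remaining tested marker, was named after its values were seen. It had 0.61 ± 0.32 with a limma voom adjusted p of 0.493. In replicates 1 and 2 it had 0.82 with a limma voom adjusted p of 0.136. PLCB2 and PTGS1 thus went in the direction of POU2F3. TRPM5, the defining tuft cell channel, had 0 or 1 count in each library. Of 6 B cell markers only PAX5, a B cell lineage factor, was tested, with a log2 fold change of -0.37 and a limma voom adjusted p of 0.642. With replicates 1 and 2 only PAX5 had -0.75 with a limma voom adjusted p of 0.0112, a change under 2-fold. CD79B, a chain of the B cell receptor, had 1 to 12 counts, and MS4A1, a surface marker of B cells, had 0 in all 6 libraries.

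The tested genes whose log2 CPM followed that of POU5F1B most closely over the 6 libraries were TGFBI, MLPH, NLRP1, GLE1 and ACE, with Pearson's r of 0.999, 0.997, 0.996, 0.995 and 0.995. The 6 points share their libraries and depth and lie in the groups themselves, so r describes the likeness of the patterns only. TGFBI, a secreted matrix protein induced by TGF-beta, was counted 1198, 1180 and 921 times in GFP cells and 3950, 3348 and 2538 times in POU5F1B cells. MLPH, an adaptor of melanosome transport, was counted 39, 46 and 30 times in GFP cells and 190, 151 and 102 times in POU5F1B cells. In both, POU5F1B replicate 3 was the lowest of its group, as it was for POU5F1B. Of the POU genes, POU5F1 had an r of 0.925 and came 334th of 14285 genes, POU3F1 had 0.55, POU4F1 -0.13, POU6F1 -0.37 and POU2F1 -0.46.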

How the data were processed

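The 6 libraries of polyadenylated RNA were analysed. The authors mapped reads to hg19 with hisat2 and counted uniquely mapped reads with featureCounts over genes and transposable elements. The deposited values are whole-number counts per Ensembl gene, without normalization. The gene annotation release is not given in the sources used here. Symbols were found for 87.4% of identifiers. Coordinates and lengths came from GENCODE on GRCh37, the build of hg19.

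Groups and replicate numbers came from the titles. As in the study's methods, the test was limma voom (version 3.58.1, R 4.3.3) with TMM factors, two-sided. The filter on low counts, filterByExpr of edgeR 4.0.16, was chosen here. The test was run with Benjamini-Hochberg adjustment over 14286 genes. CPM used TMM-scaled library sizes, and log2 CPM a prior count of 2. Alternatives were edgeR's quasi-likelihood test, DESeq2 1.42.0, quality weights, other scalings, no filter, a replicate block, summed paralogs and left-out libraries. The fits were tested on simulated data.

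All 10 members are named. Of each other list, genes past the threshold are named, or else the 2 with the highest mean CPM, and the 5 genes most like POU5F1B. Other names were chosen after their values were seen. A few listed genes are not reported here. The members and lists were chosen with earlier results of these data known.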

Additional observations from a re-analysis of the deposited data

How the results depend on the processing

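The 13 reversed values all belong to genes far from the threshold: POU4F1 (main value 0.0027) was -0.25 with edgeR, -0.25 with DESeq2, -0.00055 with DESeq2 size factors, -0.13 with the replicate block, and -0.38 to 0.55 with each library left out in turn. POU2F1 was 0.0076 with sample quality weights, 0.029 with replicates 1 and 2 only and 0.032 with these and no filter. POU3F2, with no filter, ranged from -3.04 to 0.15 with each library left out. A further 107 values of the members kept their direction and side of the threshold, and 11 kept their direction and came past it. Among the 107, POU6F1 was -0.66 with sample quality weights and a limma voom adjusted p of 0.0495, a change under 2-fold. Over all settings POU6F1 ranged from -0.69 to -0.0028.

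The number of genes past the threshold, 0 in limma voom and edgeR (1698 and 1720 at an unadjusted p under 0.05), was 232 with DESeq2, 1077 with sample quality weights, 4 with at least 1 count in total, 1194 with replicates 1 and 2 only, 1482 with these and at least 1 count in total, and 0 to 595 with each library left out, the highest without GFP replicate 3. Of the POU genes, 0 passed in the main test, 2 with DESeq2, 2 with quality weights, 2 with replicates 1 and 2 only, 3 with these and no filter, and 0 to 1 with each library left out. The 1 was POU5F1B without POU5F1B replicate 3, at 11.82 with a limma voom adjusted p of 0.0157. The cause was not tested.

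With the replicate block, 1 gene passed, POU5F1B, at 10.83 with a limma voom adjusted p of 0.0275. The SE of POU5F1B was then 0.40, beside 2.78 in the main test. Deviations of same-numbered libraries correlated at 0.242, 0.0883 and 0.165 for numbers 1, 2 and 3, all positive. The main test used no replicate block, and the labels do not say whether the numbers pair the libraries.

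The ratio of POU5F1B to the other POU genes moved from 19.6 to 90.2 with POU5F1B by coding length and the others by exon length, and to 51.7 without POU5F1, and was 16.1 to 26.2 with each POU5F1B library left out. POU2F2, POU2F3 and POU3F2 had at most 50 counts in a library, which limits the precision of their values.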

Other observations

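Markers of further cell types were counted for the same libraries. Of 7 neuroendocrine markers 3 were tested, and 0 passed the threshold with all libraries. CHGA, a protein of secretory granules, was counted 194, 215 and 347 times in GFP cells and 17, 20 and 303 times in POU5F1B cells, with a log2 fold change of -2.30 and a limma voom adjusted p of 0.402. SYP, a synaptic vesicle protein, was counted 168, 178 and 230 times in GFP cells and 37, 48 and 257 times in POU5F1B cells. Both were low in POU5F1B replicates 1 and 2 and not in POU5F1B replicate 3. With replicates 1 and 2 only, all 3 tested markers, the third being CHGB, passed the threshold and were lower in POU5F1B cells. NEUROD1 and INSM1, lineage factors on the list, had 0 to 2 counts. ISL1, also on the list, was named after its values were seen and did not pass the filter. It was counted 7, 19 and 5 times in GFP cells and 0, 1 and 11 times in POU5F1B cells.

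Of 6 fibroblast markers only COL1A1, a chain of type I collagen, was tested. It was counted 1681, 1553 and 194 times in GFP cells and 86, 60 and 114 times in POU5F1B cells, with a log2 fold change of -3.22 and a limma voom adjusted p of 0.340. In replicates 1 and 2 it passed the threshold, lower in POU5F1B cells, at -4.39 with a limma voom adjusted p of 1.81e-08. GFP replicate 3 was thus nearer to the POU5F1B libraries than to GFP replicates 1 and 2. LUM, a matrix proteoglycan chosen after its values were seen, had 34 counts in GFP replicate 3, 5 in POU5F1B replicate 3 and 0 in the other 4 libraries.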
